A study of Caenorhabditis elegans with 2 samples.

Results

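Small nucleolar RNA (snoRNA) genes that lie within protein-coding host genes were examined for sites of HIM-1, mapped by chromatin immunoprecipitation and sequencing (ChIP-seq). HIM-1 is the SMC1 subunit of cohesin in Caenorhabditis elegans. All genes annotated as snoRNA in Ensembl WBcel235 (the assembly also called ce11) were taken if they lay wholly inside the span of a protein-coding gene on either strand. The rule gave 216 of 346 snoRNA genes, in 192 host genes, and the remaining 130 lay outside protein-coding genes. The rule uses annotation and no ChIP value, although it was set with earlier results of these data known. The samples were 2 biological replicates of 1 group: whole hermaphrodites of strain YL576, a transgenic line that stably expresses HIM-1 with a C-terminal GFP-FLAG tag, collected as L4 larvae or young adults 51 hours after synchronization as starved L1 larvae. Chromatin was sonicated, and the labels give the antibody as anti-GFP in their free text and as him-1 in their antibody field. All samples shared one condition, and immunoprecipitates of untagged or GFP-only animals were not analysed here. Signal from whole animals mixes all cell types, so a summit can come from many cells or from few.

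Most snoRNAs guide chemical marks onto ribosomal RNA. Box C/D snoRNAs direct 2'-O-methylation and box H/ACA snoRNAs direct the conversion of uridine to pseudouridine. In many animals snoRNAs lie in introns and are cut out of the host's own transcript, while others are transcribed from a promoter of their own. RNA polymerase III genes such as tRNA genes carry A and B boxes, which bind the factor TFIIIC, and small nuclear RNA (snRNA) genes carry a proximal sequence element upstream of their start. Cohesin is a ring-shaped complex that holds sister chromatids together and shapes chromosome loops, and the cohesin loader and the related complex condensin have been found at tRNA genes in yeast.

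A total of 183 of the 216 snoRNA genes lay on the strand of a host and 33 lay only on the opposite strand. In all, 170 overlapped no host exon and 46 overlapped one. Their lengths ran from 54 to 325 bases with a median of 127. The genomic sequence of 215 of them occurred once in the genome, and that of T19C4.11 occurred 2 times. The deposited data are lists of peaks. The optimal list held 1797 peaks that passed the authors' test of reproducibility between replicates. The pooled list held 12228 entries from both replicates together, with background entries included. Signal values are the authors' own, on a scale not given in the sources used here. They were ranked only within 1 list, and values of different lists are set side by side only as a description.

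Sequence immediately before the snoRNA genes is shown first, because most optimal summits lay there. The following 6 genes had an optimal summit and a match to an A or B box in the 100 bases before their 5' end. Capitals mark the A box (TGG and, 3 bases on, AGNNG) and the B box (GTTCNANNC), in which N is any base. Each sequence is from RefSeq WBcel235, reads 5' to 3' on the strand of the snoRNA, and ends at the base before it.
C51F7.3: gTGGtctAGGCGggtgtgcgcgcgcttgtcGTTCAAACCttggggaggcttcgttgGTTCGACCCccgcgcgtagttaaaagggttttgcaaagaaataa
M106.6: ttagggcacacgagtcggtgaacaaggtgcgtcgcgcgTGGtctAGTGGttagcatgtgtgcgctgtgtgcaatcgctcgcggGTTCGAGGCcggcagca
C04G6.12: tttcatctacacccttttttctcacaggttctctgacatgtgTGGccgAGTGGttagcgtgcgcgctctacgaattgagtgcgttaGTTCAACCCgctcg
Y43F8C.22: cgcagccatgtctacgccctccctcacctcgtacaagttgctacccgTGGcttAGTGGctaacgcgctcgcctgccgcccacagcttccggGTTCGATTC
F55A11.10: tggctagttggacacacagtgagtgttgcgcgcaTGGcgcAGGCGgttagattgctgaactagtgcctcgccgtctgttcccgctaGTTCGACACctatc
K11C4.6: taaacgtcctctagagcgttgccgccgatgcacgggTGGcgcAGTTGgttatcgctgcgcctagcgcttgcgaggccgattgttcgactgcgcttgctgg
These lie at V:12303608-12303707 (plus strand), II:10840217-10840316 (plus strand), II:5105232-5105331 (minus strand), V:19643188-19643287 (minus strand), V:11782892-11782991 (plus strand) and V:6888976-6889075 (plus strand), in the order shown. In M106.6, C04G6.12, Y43F8C.22 and F55A11.10 an A box was followed by a B box that ended shortly before the snoRNA. K11C4.6 held the A box alone. Most of the bases shown for C51F7.3 are part of the neighbouring snoRNA gene C51F7.4, which held the A box and both B boxes.

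Other snoRNA genes carried a different element, printed here because it was nearly identical from gene to gene. Capitals mark GNAACNCG followed, after 5 bases, by TGTCNG. ZK994.7 had an optimal summit, and the next 3 genes had an entry in the pooled list only.
ZK994.7: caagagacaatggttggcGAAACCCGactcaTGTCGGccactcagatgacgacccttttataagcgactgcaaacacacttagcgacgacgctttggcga
F01D5.12: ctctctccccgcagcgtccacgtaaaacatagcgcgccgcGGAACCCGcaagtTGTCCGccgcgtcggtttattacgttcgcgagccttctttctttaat
W04D2.7: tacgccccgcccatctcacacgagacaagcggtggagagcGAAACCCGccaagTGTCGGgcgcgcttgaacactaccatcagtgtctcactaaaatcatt
Y55F3BR.9: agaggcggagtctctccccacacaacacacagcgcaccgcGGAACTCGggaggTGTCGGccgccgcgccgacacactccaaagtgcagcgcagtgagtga
These lie at V:8500479-8500578 (plus strand), II:14018442-14018541 (minus strand), V:12491180-12491279 (plus strand) and IV:867134-867233 (minus strand), from the same source. The element began 60 bases before F01D5.12, W04D2.7 and Y55F3BR.9, and 82 bases before ZK994.7. The letters of the A box and of this two-part element were chosen after the bases before snoRNA genes with optimal summits had been read, so their shares below are descriptions.

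An optimal HIM-1 summit lay within 250 bp of 33 of the 216 intragenic snoRNA genes (15.3%, Wilson 95% interval 11.1 to 20.7), against 3.90% of all 46890 annotated nuclear genes and 19.7% of all 346 snoRNA genes. The share was 26.9% (35 of 130) for snoRNA genes outside protein-coding genes, whose interval overlaps the first narrowly. It was 22.4% (65 of 290) for tRNA genes inside protein-coding genes and 3.77% (4 of 106) for microRNA genes inside them, which is near the share of all genes. The 33 genes shared 31 summits, since C51F7.3 and C51F7.4, and C27H5.9 and C27H5.10, are neighbours with a summit in common. These intervals cover counting error over genes and not the spread between worm cultures.

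In the pooled list, 65 of the 216 genes had an entry within 250 bp (30.1%, 24.4 to 36.5), against 17.2% of all nuclear genes and 35.3% of all snoRNA genes. The other groups stood at 43.8% (57 of 130) for snoRNA genes outside protein-coding genes and 56.9% (165 of 290) for intragenic tRNA genes. A pooled entry without an optimal summit was therefore the state of 32 intragenic snoRNA genes, and 151 had neither. Over all 46890 nuclear genes, 8044 had a pooled entry and 1831 an optimal summit. Most nuclear genes with a pooled entry thus lacked an optimal summit too, and the class of 32 is not read as an excess. Among the 151, 5 had an entry in the list of replicate 1 alone, 10 in that of replicate 2 alone, and 0 in both.

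**Figure D1:**
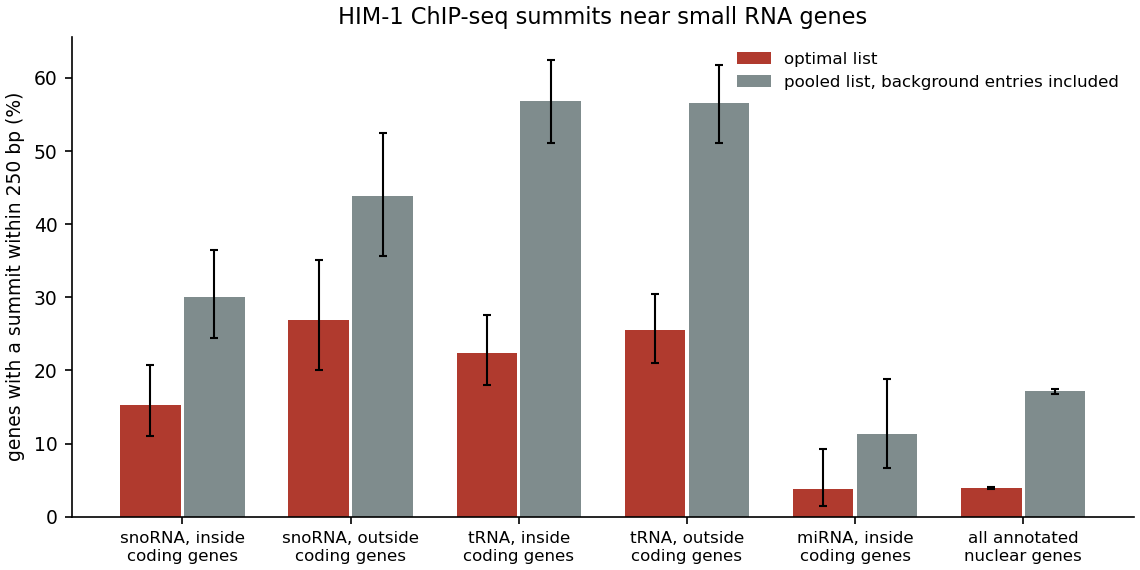
Share of genes with a HIM-1 summit within 250 bp (vertical axis, percent) in the optimal list and in the pooled list, which includes background entries, for snoRNA, tRNA and microRNA genes by place and for all nuclear genes. Bars are shares and lines are Wilson 95% intervals; intragenic snoRNA genes reach 15.3% in the optimal list, below the 26.9% of snoRNA genes elsewhere and above the 3.90% of all genes.

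The summits sat upstream of the snoRNA, close to its 5' end. Of the 33 optimal summits nearest to an intragenic snoRNA gene, 30 lay upstream of it (90.9%, 76.4 to 96.9), and 28 of these within 100 bp of its 5' end. The median position was -45 bp, where negative is upstream. C51F7.4 held a summit inside the gene, and C27H5.10 and B0334.12 had one downstream. The snoRNA genes outside protein-coding genes had 29 of 35 summits upstream (82.9%, 67.3 to 91.9) and the same median of -45 bp. Intragenic tRNA genes differed, with 28 of 65 upstream (43.1%, 31.8 to 55.2), 33 inside and a median of 9 bp after the 5' end. The intervals of the intragenic snoRNA and tRNA shares do not meet. Summits with a pooled entry only were spread more widely: 14 of 32 lay upstream (43.8%, 28.2 to 60.7), 8 inside and 10 downstream.

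**Figure D2:**
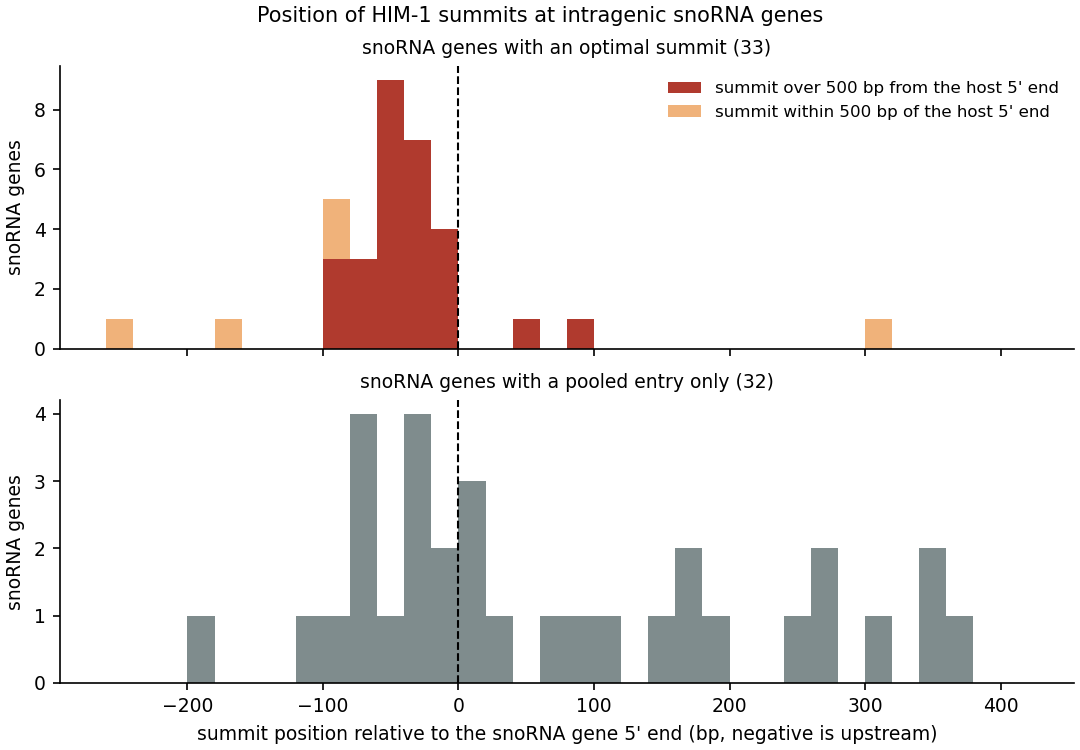
Position of the summit nearest to each intragenic snoRNA gene relative to the snoRNA 5' end (horizontal axis, bp, negative upstream), as counts of genes (vertical axis), for the 33 genes with an optimal summit and the 32 with a pooled entry only. Of the 33 optimal summits 28 lie in the 100 bp before the gene, and these include all 26 upstream summits away from the host 5' end, while entries of the pooled list alone run from -197 to 370 bp.

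Most of these summits were far from the host's own 5' end. Of the 33 genes, 28 (84.8%) had a summit over 500 bp from the annotated host 5' end, at 535 to 16015 bp with a median of 2985 bp. In this set 26 summits lay within 100 bp upstream of the snoRNA. Against the 5' ends of all protein-coding transcripts rather than the host gene alone, 21 summits were over 500 bp away, and 19 of those were within 100 bp upstream of the snoRNA. The signal of the 28 had a median of 165 and ran from 103 to 416. The median over all 1797 optimal peaks was 144, and 22 of the 31 distinct summits at these snoRNA genes were at or above it.

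Summits near the host 5' end were found for 5 of the 33 genes (15.2%, 6.65 to 30.9). F54E7.10, in the ribosomal protein gene rps-12, had the highest signal, 526, in the peak at III:5679015-5679245. Its summit was 164 bp upstream of rps-12 and 244 bp upstream of the snoRNA, at the edge of the window, and the 5' end of another coding transcript was nearer still, at 129 bp. C02F5.15, which lies inside both fbxl-1 and rfs-1 and overlaps an exon of at least 1 of these hosts, had a signal of 226 and a summit 145 bp upstream of fbxl-1. The pdl-1 pair, C27H5.9 and C27H5.10, lies on the strand opposite to its host and shared a signal of 214, with the summit 375 bp inside pdl-1 and 98 bp upstream of C27H5.9. F39B2.14, in tmem-107, had a signal of 185 and a summit 26 bp upstream of the host. For F54E7.10, C02F5.15 and F39B2.14 the host 5' end was nearer to the summit than the snoRNA was, and which of the neighbours the signal belongs to cannot be told apart.

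**Figure D3:**
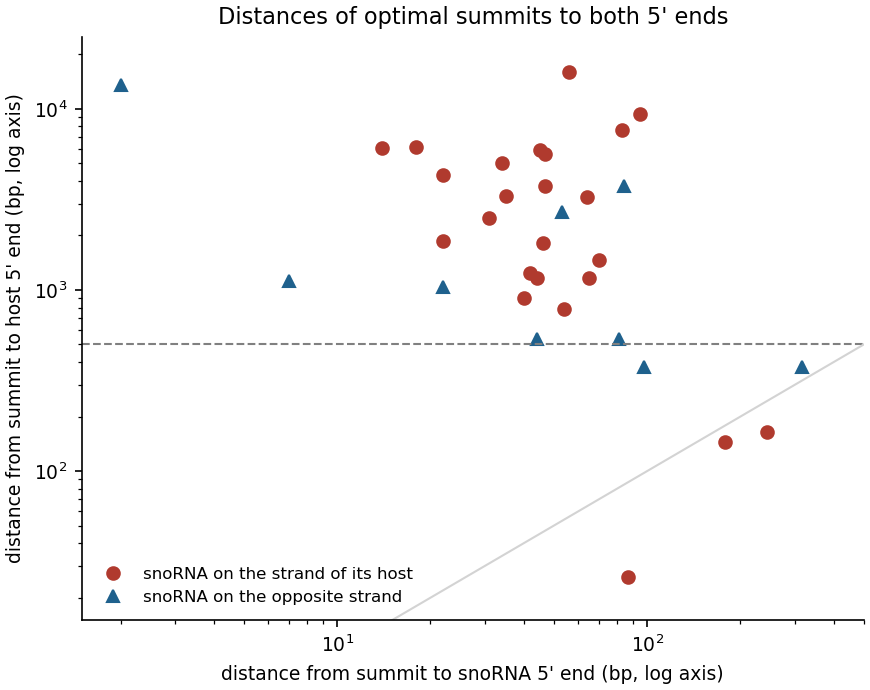
Distance of each of the 33 optimal summits to the snoRNA 5' end (horizontal axis, bp, log scale) and to the host 5' end (vertical axis, bp, log scale), by strand relative to the host. The dashed line is 500 bp and the grey line marks equal distances; 28 points lie above the dashed line, and only 3 lie below the grey line, nearer to the host 5' end.

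Few genes lay near the 250 bp limit, and the 3 just inside it had higher signals than the 3 just outside. Just inside were C02F5.15 at 178 bp (signal 226), C27H5.10 at 243 bp (signal 214) and F54E7.10 at 244 bp (signal 526). Just outside were K02F3.15 in zip-2 at 295 bp (signal 124), H06I04.9 in ubl-1 at 330 bp (signal 119) and Y24D9A.9 in the ribosomal protein gene rpl-7A at 345 bp (signal 190, a summit 63 bp upstream of rpl-7A).

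The strongest summits away from a host promoter were at 5 genes. C51F7.3 and C51F7.4 lie side by side in frm-7, which encodes a FERM domain protein. Their shared peak, V:12303408-12303877, had a signal of 416 in the optimal list, with 259 in replicate 1 and 155 in replicate 2. The summit was 65 bp before C51F7.3, inside C51F7.4, and 1159 bp from the frm-7 5' end. ZK994.7, in the peroxidasin gene pxn-1, carried the two-part element shown above. Its optimal signal was 385, with 230 in replicate 1 and 150 in replicate 2, and the summit was 47 bp before the snoRNA and 5643 bp from the pxn-1 5' end.

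M106.6 lies in mix-1, the condensin subunit SMC2 of worms, and had the optimal summit farthest from its host's 5' end, at 16015 bp. The optimal signal was 333, with 202 in replicate 1 and 127 in replicate 2, and the summit was 56 bp before M106.6, within its A box. C27H6.5 lies in unc-41, which encodes a synaptic vesicle endocytosis protein, and had an optimal signal of 310, with 206 in replicate 1 and 101 in replicate 2. Its summit was 45 bp before the snoRNA and 5922 bp from the gene's 5' end, or 1559 bp from the nearest 5' end of an unc-41 transcript. All 5 genes thus had a higher value in replicate 1, as did most others.

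Genes on the strand opposite to their host had summits as well, 7 of 9 upstream of the snoRNA and 2 downstream (C27H5.10 and B0334.12), where those on the strand of a host had 23 of 24 upstream. ZK484.9, in haf-9 (an ABC transporter of intestinal granules), had 282 in the optimal list, with 150 in replicate 1 and 135 in replicate 2, and its summit was 22 bp before the snoRNA. C04G6.12, in the MAP kinase gene mpk-2, had 233, with 128 in replicate 1 and 111 in replicate 2, and a summit 7 bp before it. Of the 33 genes on the opposite strand, 9 had an optimal summit (27.3%, 15.1 to 44.2), against 24 of 183 on the strand of a host (13.1%, 8.97 to 18.8). The intervals overlap. For 7 of the 9 the summit was over 500 bp from the host 5' end, and 6 of those 7 lay upstream of the snoRNA.

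The other genes among the highest 15 repeated this layout at lower signal. K11C4.6, in the beta-spectrin gene unc-70, had an optimal value of 226, with 125 in replicate 1 and 93.8 in replicate 2, 7655 bp from the host 5' end and 83 bp before the snoRNA. The unc-70 promoter had a separate optimal summit, 173 bp upstream of the gene, with a signal of 105. C10C6.8, in the cation-transporting ATPase gene catp-8, had a value of 217 (119 in replicate 1 and 89.4 in replicate 2) at 34 bp before the snoRNA. Y43F8C.22, in Y43F8C.7, had 208 (104 in replicate 1 and 98.7 in replicate 2) at 54 bp before it. F55A11.10, in F55A11.6, had 188 (101 in replicate 1 and 84.1 in replicate 2) at 18 bp before it. Its summit was 6136 bp from the host gene's 5' end but 106 bp from the 5' end of one of the host's transcripts.

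Annotated alternative starts bear on several genes in this way. Counting the 5' end of any transcript of the host, 11 of the 33 summits were within 500 bp (33.3%). Counting those of all coding transcripts, 12 were (36.4%). These values are higher than the 15.2% that the 5' end of the host gene gives.

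Both replicates held an entry at all 33 genes, which the choice of peaks reproducible between replicates largely fixes in advance. The replicate 1 value over the replicate 2 value ran from 0.678 to 3.17 with a median of 1.46, and replicate 1 was higher at 27 genes and replicate 2 at 6. Library depth is unknown, since peak lists hold no reads, and the ratio could not be adjusted for it. The highest ratio was at C27H5.9 and C27H5.10, with 161 in replicate 1 and 50.9 in replicate 2. F39B2.14 went the other way, with 76.7 in replicate 1 and 113 in replicate 2. The sum of both values was 0.942 to 1.04 times the pooled value.

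The summits of the replicates lay a median of 25.0 bp apart, within 20 bp at 14 genes and at most 199 bp. Upstream summits numbered 27 of 33 in the list of replicate 1 and 26 of 33 in that of replicate 2. Among the 1797 entries with the highest signal in each replicate's own list, summits within 250 bp were found for 31 of the 216 genes in replicate 1 and 33 in replicate 2. The 2 sets shared 26 genes, and all 26 were among the 33 with an optimal summit. Per the deposited text, the replicates had a control in common, so these lists are not independent of each other.

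**Figure D4:**
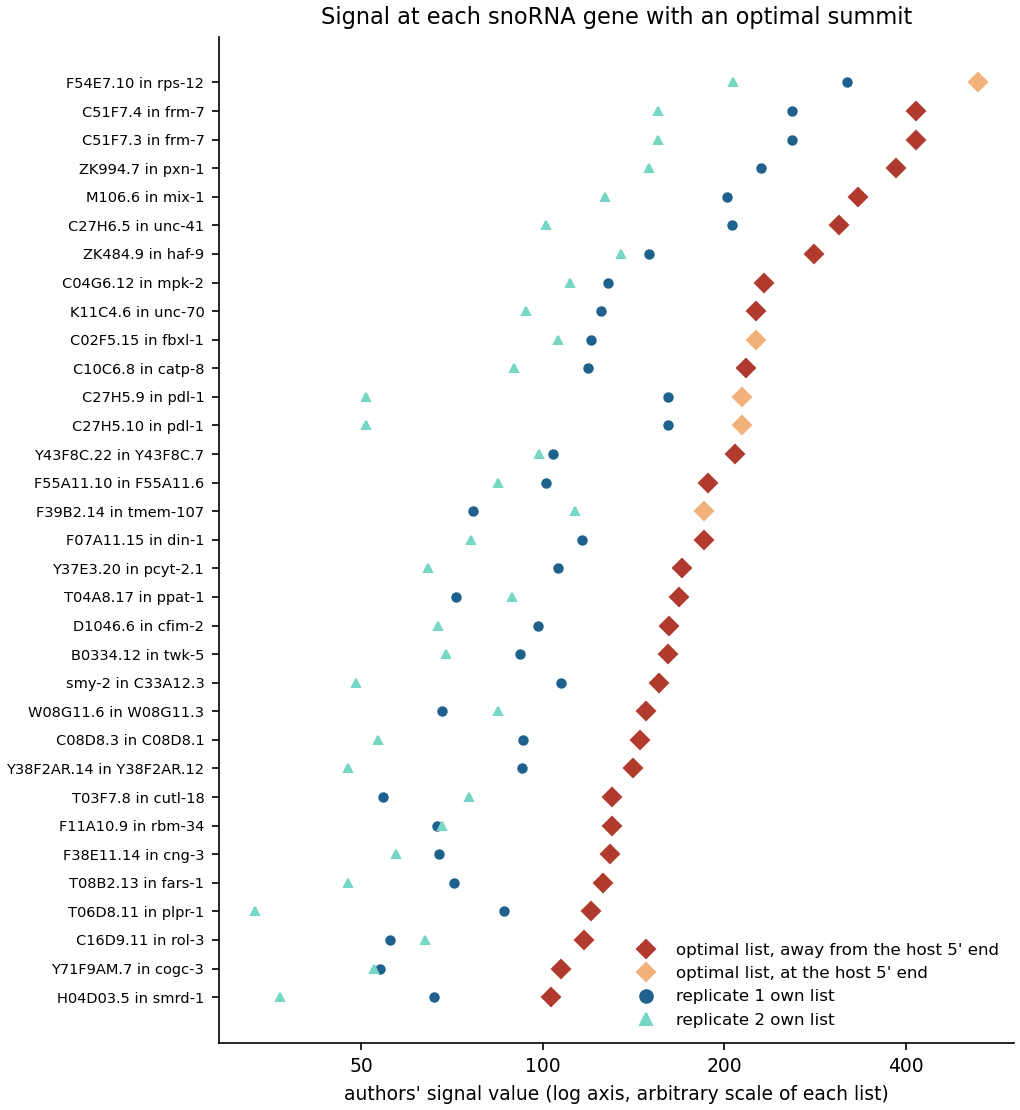
Signal value (horizontal axis, log scale, the authors' scale of each list) of the 33 intragenic snoRNA genes with an optimal summit, 1 row per gene with its host. Diamonds are the optimal list, circles replicate 1 and triangles replicate 2; optimal values run from 103 at H04D03.5 to 526 at F54E7.10, and circles lie right of triangles in 27 rows.

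Below the optimal threshold, the 32 genes with a pooled entry only had signals from 42.9 to 96.0 with a median of 58.0, where the whole pooled list had a median of 56.3. Of these, 27 had an entry in both replicates' lists, 4 in replicate 1 alone and 1 in replicate 2 alone. F01D5.12, in F01D5.10, had the highest value, 96.0, with 75.6 in replicate 1 and 28.6 in replicate 2, and a summit 25 bp after the snoRNA 5' end. Y71D11A.7 in acsd-1 had 90.6 (52.6 in replicate 1 and 39.0 in replicate 2) at 35 bp upstream. C05D2.15 in madf-11 had 88.7 (36.7 in replicate 1 and 50.4 in replicate 2) at 51 bp upstream. W04D2.7, in the innexin gene inx-11, had 85.9 (46.6 in replicate 1 and 39.3 in replicate 2) at 11 bp after the 5' end. Y55F3BR.9, in Y55F3BR.2, had 85.5 (26.5 in replicate 1 and 55.5 in replicate 2) at 32 bp upstream. Of these 5 genes, F01D5.12, W04D2.7 and Y55F3BR.9 carried the two-part element. Only 1 of the 32 genes had its summit within 500 bp of the host 5' end.

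A and B boxes were more frequent before snoRNA genes with an optimal summit than before those without an entry. The A box letters were chosen after reading these same bases, so its higher share at optimal summits is partly built in. Both strands were searched. On the snoRNA's strand a B box lay in the 100 bases upstream of 11 of the 33 genes with an optimal summit (33.3%), 2 of the 32 with a pooled entry only (6.25%) and 5 of the 151 with neither (3.31%). Over the 216 genes it lay upstream of 18 on the snoRNA's strand and of 1 on the other strand. Of 1002724 windows of 100 bases that tile the genome, 1.76% held it on a given strand and 3.50% on either. An A box lay upstream of 13 of the 33 (39.4%), 5 of the 32 (15.6%) and 6 of the 151 (3.97%), against 1.86% of genome windows. On the other strand 7 of the 216 genes had one, against 24 on the snoRNA's strand.

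At least one of both boxes lay upstream of 17 of the 33 genes with an optimal summit (51.5%, 35.2 to 67.5), 6 of the 32 (18.8%) and 10 of the 151 (6.62%), and in 3.56% of genome windows. Both boxes lay upstream of 7 of the 33, 1 of the 32 and 1 of the 151, and in 0.0613% of genome windows. Read the other way, 33 intragenic snoRNA genes had either box, and the 17 with an optimal summit were 51.5% of them, against 16 of the 183 without a box (8.74%, 5.45 to 13.7). The snoRNA genes outside protein-coding genes gave 12 of 18 with a box (66.7%, 43.7 to 83.7) and 23 of 112 without (20.5%, 14.1 to 28.9). A match says only that these letters are present, and counts that include the A box are descriptions because of how its letters were chosen.

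The same letters are a property of tRNA genes, 587 of 612 of which hold the B box in their own sequence (95.9%) and 295 the A box (48.2%). No annotated tRNA gene lay within 250 bp of any of the 33 optimal summits (0 of 33), and none overlapped the 100 bases before any of the 216 snoRNA genes. Genes annotated as non-coding RNA of no further class overlapped those bases at 11 of the 33 genes with an optimal summit, 4 of the 32 with a pooled entry only and 8 of the 151 with neither. Annotated pseudogenes overlapped them at T08B2.13 and D1046.6, both with an optimal summit, and at F19H8.6, with a pooled entry only. T08B2.13 and F19H8.6 were among the genes with an A or B box.

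Most boxes lay at set distances from the snoRNA. The first base of the A box lay 70 to 50 bases before the snoRNA in 22 of 25 matches, with a median of 61. The B box began 20 to 9 bases before it in 13 of 19 matches, with a median of 16. At the 17 genes with a box the summit had a median of -53 bp, and the signal ran from 103 to 416 with a median of 208. Of these genes, 10 were at most 100 bases long.

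The two-part element lay upstream of 6 of the 33 genes with an optimal summit (18.2%), 6 of the 32 with a pooled entry only (18.8%) and 3 of the 151 with neither (1.99%). It lay in 0.0300% of genome windows on a given strand and 0.0601% on either, upstream of 21 of 129 snRNA genes (16.3%) and of 5 of 19973 protein-coding genes. In snoRNA genes outside protein-coding genes it was found upstream of 14 of 130 (10.8%). It was on the snoRNA's strand in all 15 intragenic cases and on the opposite strand in 0. In 14 of the 15 it began 63 to 56 bases before the snoRNA. Of the 15 genes, 6 had an optimal summit (40.0%, 19.8 to 64.3) and 12 had a pooled entry (80.0%). The letters of the element were also chosen after reading these bases, so its shares are descriptions.

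Its optimal cases were ZK994.7, smy-2 in C33A12.3, C08D8.3 in C08D8.1, T06D8.11 in plpr-1, C16D9.11 in rol-3 and Y37E3.20 in pcyt-2.1, with signals from 117 to 385 and a median of 150. The gene smy-2 is annotated here as snoRNA, while most other smy genes are annotated as snRNA. These 6 genes had summits at a median of -41 bp. No intragenic snoRNA gene had both an A or B box and the two-part element (0 of 216). An A box, a B box or the two-part element lay upstream of 21 of the 28 genes whose summit was away from the host 5' end (75.0%, 56.6 to 87.3). The same held for 2 of the 5 at the host 5' end and for 13 of the 151 with no entry (8.61%, 5.10 to 14.2). Part of this contrast is built in, because the letters of the A box and the two-part element were chosen from genes with optimal summits. The 10 genes with an optimal summit and none of these elements in their 100 upstream bases included F54E7.10 and C10C6.8, and their signals ran from 141 to 526. They also included C51F7.4, which holds the boxes counted for C51F7.3 inside the gene, where its own summit lay.

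**Figure D5:**
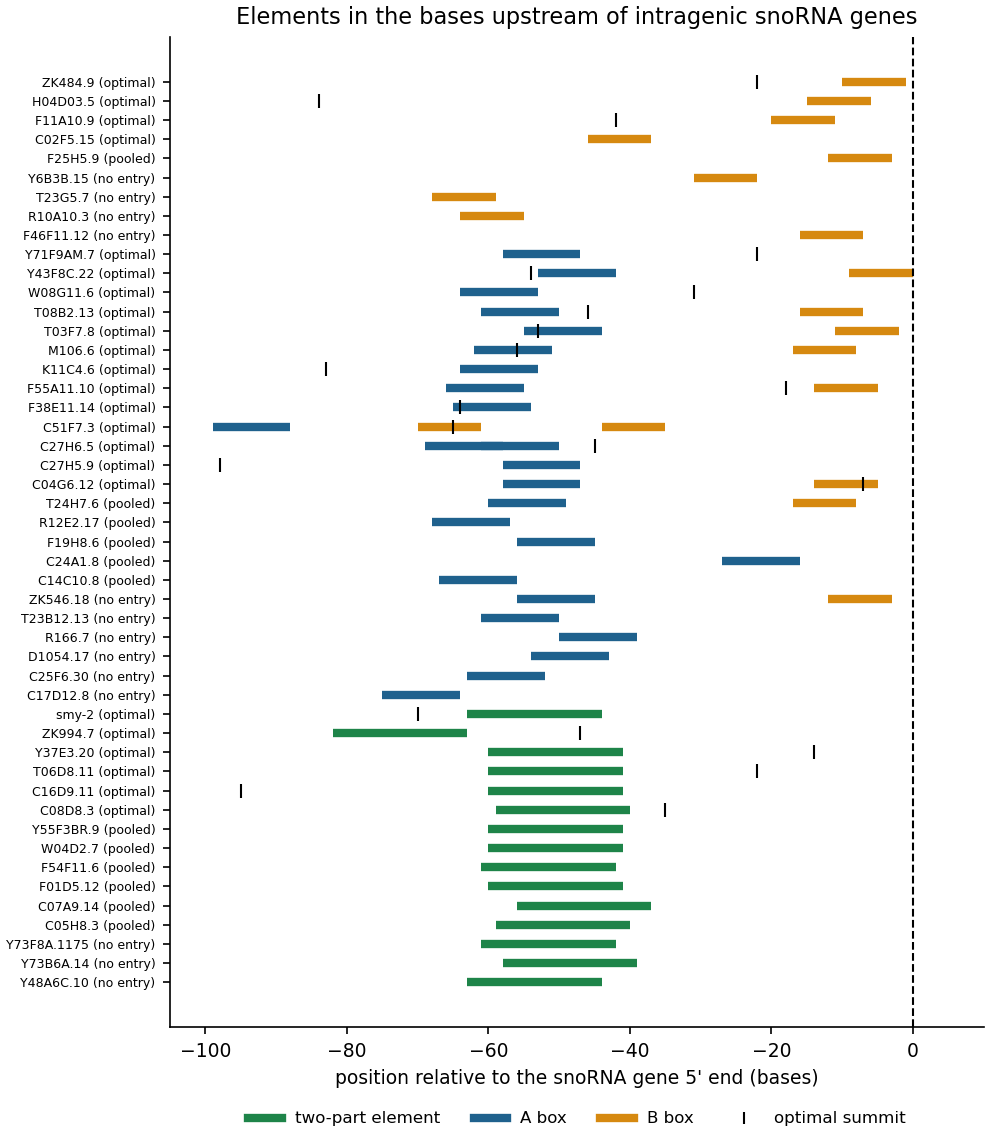
Place of the A box, the B box and the two-part element in the 100 bases before the 48 intragenic snoRNA genes that hold any of them, relative to the snoRNA 5' end (horizontal axis, bases). A black tick marks the optimal summit where it falls in the range drawn. The optimal summit of C02F5.15, at -178 bp, lies outside that range and has no tick. The A box and the two-part element line up near 60 bases before the gene, and most B boxes lie in the last 20 bases.

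Base composition and length moved with the summits. The 100 upstream bases had a median GC content of 56.0% at the 33 genes with an optimal summit, 49.5% at the 32 with a pooled entry only and 40.0% at the 151 with neither. Median gene lengths were 91.0, 126 and 129 bases in that order. An optimal summit lay at 18 of 63 genes of up to 100 bases (28.6%, 18.9 to 40.7) and at 15 of 153 longer ones (9.80%, 6.03 to 15.5). Genes that overlap no host exon had one in 29 of 170 cases (17.1%) and genes that overlap one in 4 of 46 (8.70%). The part of GC content in these counts was not tested.

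By chromosome the share was 5 of 44 on chromosome I (11.4%), 7 of 43 on II (16.3%), 4 of 44 on III (9.09%), 6 of 36 on IV (16.7%) and 11 of 39 on V (28.2%, 16.5 to 43.8). On X it was 0 of 10, which allows a share of up to 30.0% by the limit of 3 counts and 27.8% by the Wilson interval. Shares of all genes by chromosome were not worked out, so whether these values follow the summit density of each chromosome was not tested. The 1 pooled entry at an intragenic snoRNA gene on X was at T25C12.12 in the heterochronic gene lin-14, with a signal of 64.9 and an entry in replicate 1 (48.4) and none in replicate 2.

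The hosts themselves had HIM-1 summits at their 5' ends more often than other coding genes. An optimal summit lay within 500 bp of the 5' end of 31 of 192 hosts (16.1%, 11.6 to 22.0), a promoter summit, against 4.13% of all 19973 protein-coding genes and 4.01% (3.75 to 4.30) of the 19781 that host no snoRNA gene. Of these 31 summits, 30 lay upstream of the host, at a median of -173 bp. The highest were at the ribosomal protein gene rpl-15 (signal 842), the AAA ATPase gene cdc-48.1 (signal 771), rps-12 (signal 526) and the Hsp70 gene hsp-1 (signal 470). Apart from F54E7.10 in rps-12, the snoRNA genes in these hosts had no optimal summit within 250 bp.

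A promoter summit of the host did not go with a higher share of snoRNA summits. The 31 hosts held 45 snoRNA genes, 7 of which had an optimal summit within 250 bp (15.6%, 7.75 to 28.8), against 26 of 171 in the other hosts (15.2%, 10.6 to 21.3). For 5 of the 7 that summit was the one counted at the host 5' end. These include C27H5.9 and C27H5.10, whose shared summit lay 375 bp inside pdl-1 and 98 bp upstream of C27H5.9. By this count a summit away from the host 5' end was found at 2 of the 45 (4.44%, 1.23 to 14.8), against the same 26 of 171. Hosts were split by that same 5' end summit, so leaving such summits out could lower the share of the 45 alone. The gap is therefore built in and is not read as a contrast. Of the 27 hosts with a snoRNA summit away from the 5' end, 2 also had a promoter summit, unc-70 and smrd-1. Within the spans of all hosts, 1794 kb in all, lay 63 optimal summits. Of these 29 fell in the 7.12% of the span within 250 bp of a snoRNA gene (46.0%, 34.3 to 58.2), which is 22.7 per 100 kb against 2.04 per 100 kb in the rest.

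Among hosts that encode cytosolic ribosomal proteins, 6 of 13 had a promoter summit (46.2%, 23.2 to 70.9), against 4.13% of all protein-coding genes. Genes of these host classes that hold no snoRNA gene were not counted, so whether such shares are particular to hosts was not tested. The 13 ribosomal protein hosts held 19 snoRNA genes, of which 1 had an optimal summit (F54E7.10, 5.26%, 0.935 to 24.6) and 4 a pooled entry only. The translation factor hosts iff-2, eef-1G and eif-4A3 held 5 snoRNA genes, 0 with an optimal summit, and 2 of the 3 hosts had a promoter summit. The snoRNP protein gene nol-56 held 4 and the splicing factor gene prp-8 held 2, with 0 optimal summits at either and a promoter summit at both. Chaperone hosts, dnj-20 and hsp-1, held 2 snoRNA genes with 0 optimal summits. The 29 hosts known only by a sequence name held 31 snoRNA genes, of which 6 had an optimal summit and 4 a pooled entry only, and 0 of these hosts had a promoter summit.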

How the data were processed

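ChIP-seq was carried out on 2 biological replicates of 1 group, per the labels. The authors deposited narrowPeak lists in ce11: 1 per replicate and a pooled one, each with background entries and with a control in common, and an optimal list thresholded by the irreproducible discovery rate, per the text deposited with the samples. The deposited signal value and the −log10 q-value come from the authors' caller; only signal values were used. The sources used here do not name the aligner or caller; versions and signal scale were not given in the sources used here. Peak lists hold no read counts, so depth is unknown and no interval for a signal value could be given. Lists in another build were not used.

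A summit is the entry's start plus the deposited offset. It was assigned to a snoRNA gene of Ensembl release 115 within 250 bp, and to a host 5' end within 500 bp. A replicate's value is that of its entry overlapping the pooled entry, nearest by summit. Motifs were searched in the 100 bases upstream, in RefSeq WBcel235, where all 216 symbols were found and 215 had the same position. Shares have Wilson 95% intervals for counting error only. With 1 group, no test between conditions was possible, and no p-value is given. The counting steps were tested on simulated data. Scripts ran under Python 3.11.15 with NumPy 2.4.6 and SciPy 1.17.1, and figures were drawn with matplotlib 3.10.9. Columns of other samples numbered 0.

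The snoRNA genes, host lists, windows and motifs were chosen with earlier results of these data known. Genes named individually were the 15 with the highest optimal signal, the 5 highest at and the 5 highest away from the host 5' end, the 5 highest with a pooled entry only, and 3 on each side of the 250 bp window. Others were chosen after their values were seen: those missing an upstream summit or carrying the two-part element, those with a pseudogene upstream, the lowest signal, T19C4.11, T25C12.12, and hosts with promoter summits. Alternatives were other windows, any transcript 5' end, same-strand or single-copy genes, 1 gene per host, a stricter signal, and leaving out each replicate.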

Additional observations from a re-analysis of the deposited data

How the results depend on the processing

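Of the alternatives tried on the 5 main values, 41 left the value within its interval or spread and 7 moved it. The share of intragenic snoRNA genes with an optimal summit ran from 11.1% to 17.1% over all alternatives. The share of these summits within 500 bp of the host 5' end, 15.2%, became 33.3% with the 5' end of any host transcript and 36.4% with that of any protein-coding transcript. It was 3.57% among snoRNA genes over 500 bp from every host 5' end, an alternative chosen after seeing the data. That choice removes most genes that could have such a summit, so the lower value largely follows from it. The pooled share, 30.1%, became 40.7% with a window of 500 bp. Leaving out each replicate in turn, with the strongest 1797 entries of the remaining replicate's own list in place of the optimal list, gave 14.4% to 15.3% with a summit, 12.1% to 16.1% at the host 5' end, 75.8% to 80.6% upstream (against 90.9%) and 31.0% to 31.9% with any entry. The median signal was then 69.0 to 104, on the scale of a single replicate's list. For each gene named by the rule, the value without a replicate is the other replicate's own. No paired analysis was possible because there was only 1 group. Depth is unknown, and a snoRNA gene without a summit may lie below what these libraries detect.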

Other observations

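Further sequence features were counted in the same 3 classes of snoRNA gene. A D box (CTGA in the last 15 bases) ended 10 of the 33 snoRNA genes with an optimal summit (30.3%), 12 of the 32 with a pooled entry only (37.5%) and 27 of the 151 with neither (17.9%). An H/ACA end (ACA 3 to 5 bases from the 3' end) was found in 9 of the 33 (27.3%), 10 of the 32 (31.2%) and 34 of the 151 (22.5%). A C box (TGATGA in the first 20 bases) together with a D box was found in 9 of all 216 (4.17%), so most of these genes could not be assigned to a class from their annotated ends.

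A GATA site lay on the snoRNA's strand in the 100 bases upstream of 3 of the 33 genes with an optimal summit (9.09%), 3 of the 32 with a pooled entry only (9.38%) and 40 of the 151 with neither (26.5%), against 28.0% of genome windows. A TATA box (TATAAA) lay upstream of 1 of the 33 and 8 of the 151 (6.24% of genome windows), and a GAGA repeat (GAGAGA) of 0 of the 33 and 3 of the 151 (2.59% of genome windows). The most frequent 8-base words before all 216 genes were ATTTTTTT, upstream of 0, 1 and 11 genes with an optimal summit, a pooled entry only and neither, and TTTTTAAA (0, 0 and 12). Among the next most frequent, TGGCGCAG, which holds the first part of an A box, lay upstream of 6, 3 and 2 in that order. The other frequent 8-base words lay mostly at genes with no entry. The most frequent 6-base word, ATTTTT, lay upstream of 2, 5 and 44. Median GC content of the upstream bases differed between these classes (56.0%, 49.5% and 40.0% in the same order). Neither the classes nor the genome windows were matched for it, and its part in these counts was not tested.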
